A study of Homo sapiens with 6 samples.

Results

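The genes described here were 6 regulators of epithelial or mesenchymal state among the 770 genes of the nCounter PanCancer Progression Panel, in which barcoded probes bound to RNA are counted without amplification. They were chosen by name and role, with earlier results of these data known. ELF3, OVOL2 and ESRP1 were taken as regulators of epithelial cells, and SNAI1, TCF4 and WNT5A as genes that promote mesenchymal traits. NIH:OVCAR-3, a long-used line derived from a high-grade serous carcinoma of the human ovary, was grown at low density (3 samples) or at high density (3 samples). Cells of both densities were cultured for 1 week in RPMI medium with 20% serum and 10 µg/ml insulin, and 100 ng of RNA was loaded per sample. A medium density named in the design was not analysed here. Whether the 3 samples of a density were separate cultures was not stated, so the spread between samples may be technical. The p-values of the main fit rest on that spread, taken mostly from all tested genes together rather than from each gene's own samples.

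In epithelial-mesenchymal transition (EMT), cells loosen their junctions, exchange epithelial for mesenchymal gene programs and gain motility. Transcription factors of the SNAIL, ZEB and TWIST families repress junction genes such as CDH1, whereas OVOL, ELF and Grainyhead factors hold epithelial genes on and ESRP proteins set epithelial splice forms. Ovarian carcinoma cells are known to carry epithelial and mesenchymal traits at the same time.

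SNAI1 is a zinc-finger repressor that binds the E-box CAGGTG, and TCF4 is an E protein (E2-2), a helix-loop-helix factor that binds the broader class CANNTG. The windows of 250 bases before a transcription start that RefSeq lists for the members in GRCh38.p14 were therefore searched for these letters on both strands. Windows were listed for 3 members: 1 for ELF3, 2 for WNT5A and 10 for TCF4. The 2 windows with CAGGTG, read here as CACCTG in capitals on the printed strand, are shown because they are promoters of members that changed in opposite directions.
ELF3 (chr1:202010337-202010586, plus strand): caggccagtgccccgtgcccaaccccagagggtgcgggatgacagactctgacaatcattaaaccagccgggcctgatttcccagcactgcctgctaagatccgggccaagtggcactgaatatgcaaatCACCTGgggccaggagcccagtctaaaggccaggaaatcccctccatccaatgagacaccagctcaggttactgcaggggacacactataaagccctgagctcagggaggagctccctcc
WNT5A (chr3:55487307-55487556, minus strand): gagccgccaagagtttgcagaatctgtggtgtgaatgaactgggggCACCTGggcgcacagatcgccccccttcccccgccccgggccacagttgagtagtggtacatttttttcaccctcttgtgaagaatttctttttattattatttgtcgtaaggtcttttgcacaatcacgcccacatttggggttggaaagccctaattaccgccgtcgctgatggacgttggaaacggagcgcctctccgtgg
The first base of CACCTG lay 120 bases before the start of ELF3 and 204 bases before the start of WNT5A. The other WNT5A window and all 10 TCF4 windows held none. Of all 35116 promoter windows of that length, 17.5% held CAGGTG, and of the 904 windows of panel genes 17.8% did. CANNTG, which includes CAGGTG, stood in 61.8% of all windows and in 57.3% of those of panel genes. The ELF3 window held 2 such sites and the WNT5A windows 3 and 2, CACCTG included. Some of the TCF4 windows held 1 and the others none. A match of these letters is a description of the sequence, and binding was not measured.

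Expression of the 6 regulators differed between the densities in both directions within each class. Of the 3 epithelial regulators, ELF3 and ESRP1 fell and OVOL2 rose at low density relative to high density. Of the 3 mesenchymal-promoting genes, SNAI1 and WNT5A rose and TCF4 fell. All 6 passed an adjusted p of 0.05 (limma, Benjamini-Hochberg over all 480 tested genes), where 66.2% of tested genes were called, 38.8% rising and 27.5% falling. The samples of the 2 densities did not overlap for any of the 6, which was also true of 66.0% of tested genes. The median log2 fold change, low over high density, was −0.24 over the 3 epithelial regulators and 0.54 over the 3 mesenchymal-promoting genes, beside 0.045 over all tested genes.

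**Figure D1:**
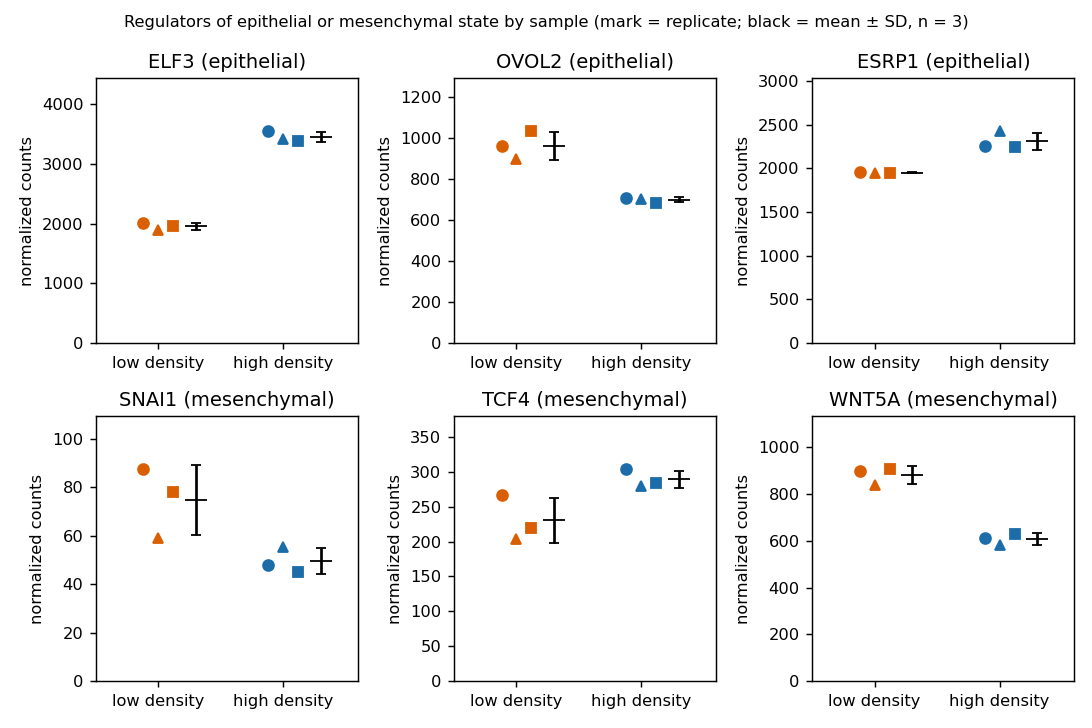
Normalized counts of the 6 regulators in each sample, low density left of high density. Symbols stand for replicates 1 to 3 of each density and black bars for the mean ± SD (n = 3). ELF3, ESRP1 and TCF4 were lower in every low density sample than in any high density sample, and OVOL2, SNAI1 and WNT5A were higher.

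ELF3, an ETS-family transcription factor of epithelial cells, changed the most of the 6. It was measured at 2012, 1886 and 1966 normalized counts in the low density samples, against 3547, 3414 and 3389 in the high density samples. The highest low density sample lay far under the lowest high density sample, while replicates of 1 density were close together. The means were 1955 ± 63.7 in low density cells against 3450 ± 84.9 in high density cells (SD, n = 3 each), which is a log2 fold change of −0.82 ± 0.039 (SE, limma adjusted p = 4.9e-69). Among the 132 genes that fell, 27 fell further.

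OVOL2, a zinc-finger repressor that keeps mesenchymal genes off in epithelial cells, moved the other way. Its normalized counts were 957, 894 and 1030 at low density, against 707, 700 and 684 at high density. Every low density sample was higher, and the low density samples were also the more spread. Means of 960 ± 68.4 in low density cells against 697 ± 12.0 in high density cells (SD, n = 3 each) gave a log2 fold change of 0.46 ± 0.052 (SE, limma adjusted p = 9.1e-17).

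ESRP1, an RNA-binding protein that directs epithelial splicing, fell modestly. The low density samples read 1963, 1948 and 1946 normalized counts, against 2261, 2426 and 2243 in the high density samples. The low density samples were almost identical, so most of the spread came from the high density sample at 2426. The means were 1952 ± 9.39 in low density cells against 2310 ± 101 in high density cells (SD, n = 3 each), which is a log2 fold change of −0.24 ± 0.040 (SE, limma adjusted p = 1.0e-08). The call depended on the scaling: with samples scaled to the positive controls of the assay the log2 fold change was −0.095 (limma adjusted p = 0.141), a scaling that also moved the median of all tested genes from 0.045 to 0.19. A scaling by 1 factor per sample shifts every gene alike, so the distance of ESRP1 from that median stays near −0.29 by construction. Under quantile normalization, which can change it, the distance was −0.20.

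SNAI1 was the weakest signal of the 6. It gave 87.4, 58.9 and 78.0 normalized counts at low density, against 47.8, 55.5 and 45.1 at high density. The groups were separated only narrowly, by the low density sample at 58.9 and the high density sample at 55.5. All 6 values lay at 2.90 times the background limit or more, set in each sample 2 SD above the mean of its 8 negative controls, which ran from 12.3 to 17.3 in low density samples and from 12.5 to 18.1 in high density samples. Means were 74.8 ± 14.5 in low density cells against 49.5 ± 5.37 in high density cells (SD, n = 3 each), with a log2 fold change of 0.57 ± 0.16 (SE, limma adjusted p = 5.7e-04). The difference was not past the threshold after quantile normalization (0.36, limma adjusted p = 0.0519) or by the methods' t-test, where each gene has its own spread (adjusted p = 0.0664).

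TCF4, which pairs with other helix-loop-helix factors and is distinct from the WNT effector TCF7L2, fell. The values were 267, 204 and 220 normalized counts in low density samples, against 304, 280 and 284 in high density samples. Low density replicate 1 lay close to the high density samples and the other 2 samples well under them. The means were 230 ± 32.7 in low density cells against 289 ± 12.6 in high density cells (SD, n = 3 each), which is a log2 fold change of −0.34 ± 0.083 (SE, limma adjusted p = 1.3e-04). As for ESRP1, scaling to the positive controls ended the call (−0.19, limma adjusted p = 0.0582), as did the methods' t-test (adjusted p = 0.0809).

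WNT5A, a secreted ligand that signals mainly without β-catenin, rose. Low density samples had 900, 839 and 906 normalized counts, against 612, 581 and 631 in high density samples. The gap between the groups was several times the spread within either. Means of 881 ± 37.4 in low density cells against 608 ± 25.5 in high density cells (SD, n = 3 each) gave a log2 fold change of 0.54 ± 0.054 (SE, limma adjusted p = 1.7e-20).

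**Figure D2:**
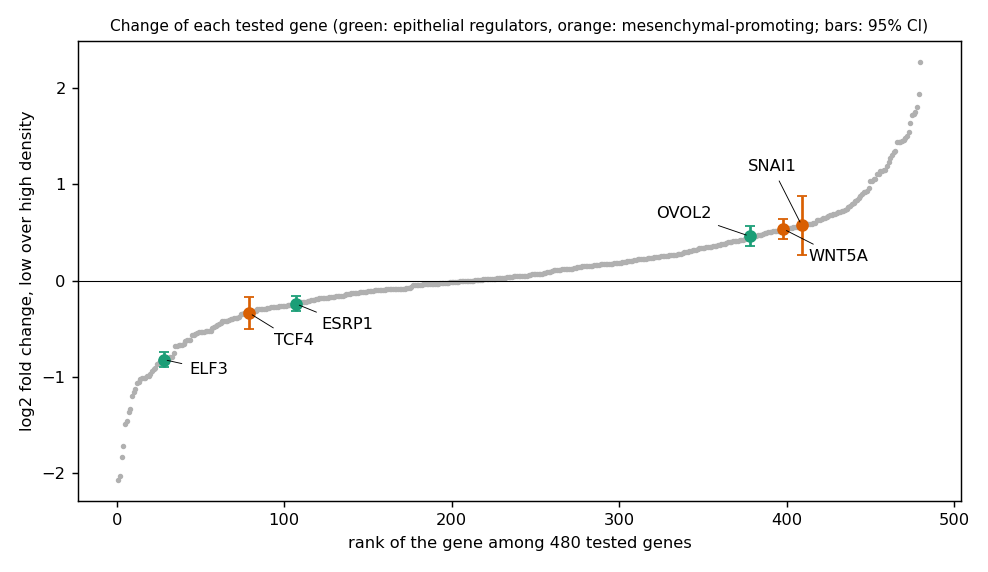
Log2 fold change, low over high density, of each of the 480 tested genes in rank order (grey). Epithelial regulators are green and mesenchymal-promoting genes orange, with 95% confidence intervals from limma. ELF3 lay near the low end at −0.82, while the other members lay between −0.34 and 0.57, inside the range of many panel genes.

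The spread between replicates was set against counting noise, where a ratio of 1 means that replicates differed as much as Poisson counts would. At low density the ratio was 5.31 for OVOL2, 4.92 for TCF4, 3.07 for SNAI1, 2.24 for ELF3, 1.74 for WNT5A and 0.047 for ESRP1. At high density it was 4.07 for ESRP1 and 1.98 for ELF3, and under 1 for the other 4. With so few samples, several of these ratios could not be told from 1. The chi-square p at low density was 0.106 for ELF3, 0.176 for WNT5A and 0.954 for ESRP1. It was 0.0049 for OVOL2, 0.0073 for TCF4 and 0.047 for SNAI1. At high density the chi-square p was 0.017 for ESRP1 and 0.138 for ELF3. The barcode totals, 658422 to 696309 in low density cells, against 554857 to 683341 in high density cells, were of similar size. Low density replicates 1 and 2 could not be told from sampling noise over all 770 genes (chi-square per gene 1.05, p = 0.18) but differed beyond it over the 480 tested genes (1.12, p = 0.033), and were kept as separate samples. Averaged as 1 sample, a choice made after seeing the data, they left all 6 calls in place, with an adjusted p of 0.0011 for SNAI1 and 3.0e-04 for TCF4 (limma).

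Ratios of pairs of members within a sample do not depend on the scaling of that sample. Probes differ in efficiency, so only the change of a ratio between densities can be read, and no test was made. Of the 15 pairs, 11 had ratios that did not overlap between densities. Where the members moved in opposite directions without overlap, their ratio cannot overlap either, so those pairs add nothing to the single genes. Among pairs that moved in the same direction, only ELF3 over ESRP1 and ELF3 over TCF4 did not overlap. The share among pairs of other genes was not counted. The ratio of ELF3 to OVOL2 was 2.10, 2.11 and 1.91 in low density samples against 5.01, 4.88 and 4.96 in high density samples. These epithelial regulators shifted against each other to much the same extent as ELF3 did against WNT5A, whose ratio was 2.22 ± 0.043 in low density cells against 5.68 ± 0.27 in high density cells (SD, n = 3 each). Of the 9 pairs of an epithelial over a mesenchymal-promoting gene, 5 were lower in every low density sample, and OVOL2 over TCF4 was higher, at 4.21 ± 0.57 in low density cells against 2.41 ± 0.084 in high density cells (SD, n = 3 each). The other 3 overlapped: OVOL2 over SNAI1, OVOL2 over WNT5A and ESRP1 over TCF4. OVOL2 and WNT5A kept nearly the same proportion, with ratios of 1.06, 1.07 and 1.14 in low density samples against 1.16, 1.21 and 1.08 in high density samples. Within the mesenchymal-promoting genes, SNAI1 over TCF4 was 0.323 ± 0.033 in low density cells against 0.171 ± 0.023 in high density cells (SD, n = 3 each).

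**Figure D3:**
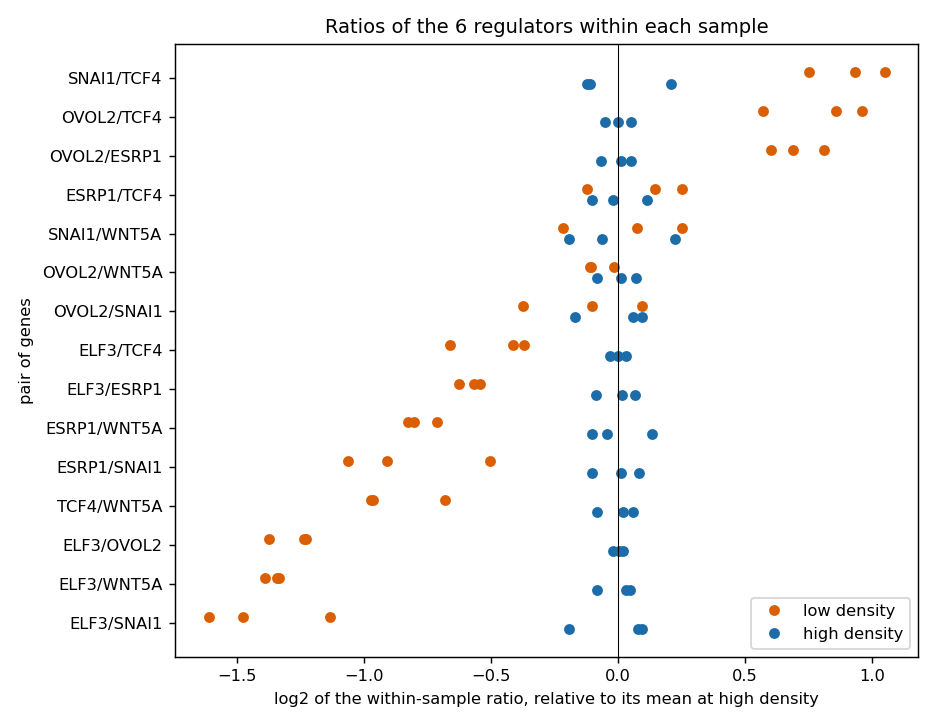
Log2 of the ratio of each pair of members within a sample, relative to the mean of that ratio at high density, with low density drawn above high density in each row. Each point is 1 sample. All ratios with ELF3 on top were shifted to the left at low density, whereas OVOL2/WNT5A, OVOL2/SNAI1, SNAI1/WNT5A and ESRP1/TCF4 overlapped.

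The other epithelial regulator tested was GRHL2, a Grainyhead factor, at 176 ± 23.5 normalized counts in low density cells against 179 ± 7.50 in high density cells (SD, n = 3 each). Its log2 fold change had a 95% confidence interval of −0.22 to 0.16 (limma adjusted p = 0.825). Together with the members, 1 of 4 tested epithelial regulators rose and 2 fell, where 38.8% of all tested genes rose and 27.5% fell. After scaling to the positive controls 1 rose, 1 fell and 2 did not pass.

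Of 11 EMT transcription factors and E proteins on the panel, 5 reached the mean of 20 normalized counts required for testing. SNAI1 rose, TCF4 fell and 3 did not pass: TWIST1, SOX9 and the E protein TCF3. TWIST1, a helix-loop-helix factor of mesoderm, was measured at 88.6 ± 14.9 in low density cells against 83.1 ± 10.9 in high density cells (SD, n = 3 each), with a log2 interval of −0.18 to 0.35. For TCF3 the interval was −0.06 to 0.53. SNAI2, SNAI3, TWIST2, ZEB1, ZEB2 and FOXC2 were under the floor, and SNAI2, ZEB1, ZEB2 and FOXC2 lay at or under the background limit in all 6 samples, so that a difference in these 4 was not detectable at this depth. ZEB1, the repressor that OVOL2 is known to hold down, averaged 6.30 normalized counts in low density cells against 4.92 in high density cells. The calls depended on scaling: 2 rose and none fell after scaling to the positive controls, where TCF3 passed (0.38), and 2 fell and none rose after quantile normalization.

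**Figure D4:**
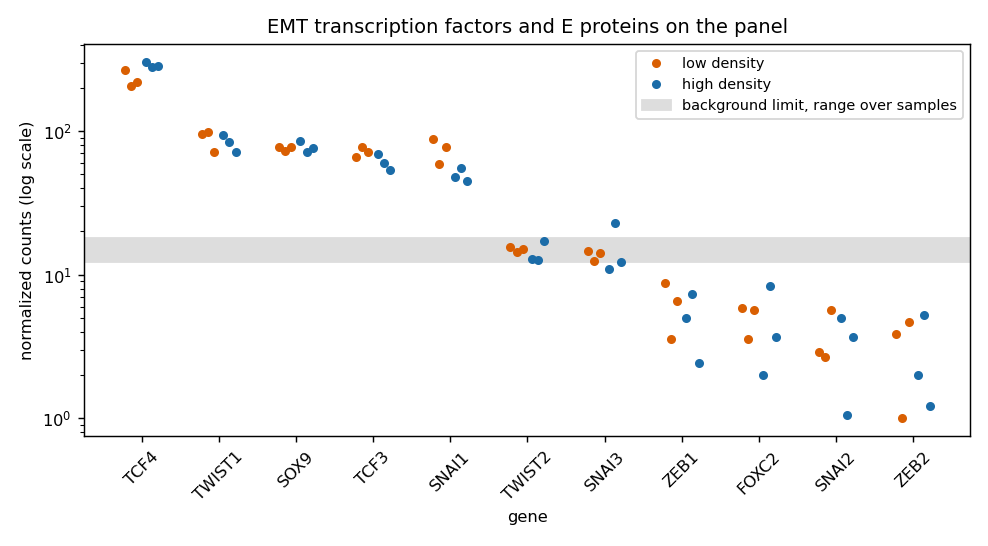
Normalized counts (log scale) of the 11 EMT transcription factors and E proteins in each sample, low density left of high density for each gene, with the range of the background limit over samples in grey. TCF4, TWIST1, SOX9, TCF3 and SNAI1 lay above the background limit in every sample, and ZEB1, FOXC2, SNAI2 and ZEB2 lay under it.

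ID proteins bind E proteins such as TCF4 and keep them off DNA. All 3 ID genes tested rose, where 38.8% of all tested genes rose. A link between their level and TCF4 was not tested. ID1 reached 6302, 6082 and 6781 normalized counts at low density, against 2098, 2031 and 2036 at high density, while TCF4 fell. The log2 fold change was 1.63 ± 0.037 for ID1 and 1.54 ± 0.062 for ID2 (SE, limma adjusted p = 2.8e-167 and 3.3e-86). For ID4 it was 0.14, and the call was lost after median-of-ratios scaling (0.072, limma adjusted p = 0.154) and after quantile normalization (0.12, limma adjusted p = 0.0504).

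Few WNT genes accompany WNT5A on the panel. Of 6 WNT ligands, receptors, effectors and inhibitors, 3 were tested, of which WNT5A and CTNNB1 rose. CTNNB1, which encodes β-catenin, rose by 0.25 ± 0.034 on the log2 scale (SE, limma adjusted p = 1.2e-12). The secreted WNT inhibitor SFRP1 had 40.8 ± 0.576 normalized counts in low density cells against 40.4 ± 4.33 in high density cells (SD, n = 3 each), and its change had an interval of −0.35 to 0.38. WNT5B, SFRP2 and CAMK2A were at or under the background limit in all 6 samples.

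Most of the tested genes that SNAI1 is known to repress fell at low density, in a list built with earlier results of these data known. Of 8 tested, 6 fell, 1 rose and 1 did not pass, where 27.5% of all tested genes fell and 38.8% rose. ESRP1, a member, is among those that fell, and the activity of SNAI1 was not tested. MUC1, a membrane mucin, had 209, 188 and 166 normalized counts at low density, against 375, 371 and 333 at high density, a log2 fold change of −0.94 ± 0.082 (SE, limma adjusted p = 6.8e-26). The tight-junction claudins CLDN4 and CLDN3 fell by 0.54 and 0.52 on the log2 scale, while CLDN1 rose by 0.34. CDH1, the adherens-junction protein E-cadherin, fell by 0.24, and OCLN, the tight-junction protein occludin, had an interval of −0.13 to 0.09. The median log2 fold change of the 8 was −0.24. After scaling to the positive controls 3 fell, 1 rose and 4 did not pass, and CDH1 was among those 4, at −0.095 (limma adjusted p = 0.145).

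Genes whose splicing ESRP1 is known to set were tested for total level alone, since the isoforms that a probe detects are not given in the sources used here. Of 5 tested, FGFR2, a fibroblast growth factor receptor, rose by 0.27, and CTNND1, the cadherin-binding p120-catenin, fell by 0.12 with overlapping groups. FGFR2 was not past the threshold after quantile normalization (0.12, limma adjusted p = 0.104), and CTNND1 was at 0.027 after scaling to the positive controls (limma adjusted p = 0.701). CD44 did not pass, but its log2 interval was wide, at −0.10 to 0.82. It was read at low counts, 27.6 ± 8.81 in low density cells against 20.6 ± 1.53 in high density cells (SD, n = 3 each). RAC1 and MAP3K7 had log2 fold changes of −0.035 and 0.064 and did not pass. RAC1 fell after median-of-ratios scaling (−0.099, limma adjusted p = 0.0097) and rose after quantile normalization (0.10, limma adjusted p = 0.0055), and MAP3K7 rose after scaling to the positive controls (0.21, limma adjusted p = 0.0019).

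The tested genes whose log2 values followed each member most closely over the 6 samples were ranked by Pearson's r among 363 genes with a mean of at least 100 normalized counts. These correlations mostly restate the contrast between densities and share the scaling of each sample, so they carry no test. KRT19, an epithelial cytokeratin, followed ELF3 with r = 0.9995, at 1834 ± 80.0 normalized counts in low density cells against 3589 ± 86.9 in high density cells (SD, n = 3 each). CLU and BTG1, a secreted chaperone and an antiproliferative factor, came next at 0.998 each. OVOL2 was followed by EIF2AK3 (0.993), a kinase of the endoplasmic reticulum stress response, ATPIF1 (0.990), an inhibitor of the mitochondrial ATP synthase, and NRCAM (0.989), a cell adhesion molecule. IL18 (0.997), RGCC (0.996) and ADAMTS1 (0.996) were closest to WNT5A.

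The remaining members had less close followers. ESRP1 was tracked by SDC4 (0.985), a cell-surface proteoglycan, EIF4EBP1 (0.984), a repressor of translation, and SCNN1A (0.983), an epithelial sodium channel subunit. SNAI1 was tracked by the membrane protease ST14 (0.984), by S100A14 (0.978) and by ERMP1 (0.958), and TCF4 by P3H1 (0.954), AP1M2 (0.953) and RBL2 (0.934). An r of 0.95 or more was reached by 66 genes for ELF3, 78 each for OVOL2 and WNT5A, 42 for ESRP1, 4 for SNAI1 and 2 for TCF4. Among the members themselves, OVOL2 and WNT5A had an r of 0.975 and SNAI1 and TCF4 of −0.46.

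Markers of other cell types were partly at background. Of 4 leukocyte markers on the panel, 3 were at or under the limit in all 6 samples, as were 3 of 7 endothelial and 6 of 9 fibroblast markers. The leukocyte list summed to 47.7 to 69.5 normalized counts in low density samples, against 61.0 to 82.7 in high density samples, and its 1 gene above the limit in all 6 samples was the chemokine receptor CXCR4, which did not pass. The endothelial list summed to 148 to 173 in low density samples, against 171 to 196 in high density samples. Its 2 genes above the limit in all 6 samples were EGFL7, which did not pass, and the receptor KDR, which fell by 0.53 on the log2 scale (limma adjusted p = 0.0172). The KDR call was lost after scaling to the positive controls, and EGFL7 was called lower after quantile normalization. The part of these genes in the results on the 6 members was not tested. The summed level of the fibroblast list was 98.1 to 118 normalized counts in low density cells, against 87.7 to 105 in high density cells. COL1A1 was its 1 tested gene (log2 fold change 0.58, limma adjusted p = 0.0123). The COL1A1 call was lost after quantile normalization (0.49, limma adjusted p = 0.0561). FAP, too low to be tested, was lower in every low density sample than in any high density sample. Its mean was 8.72 normalized counts in low density cells against 19.8 in high density cells. FAP lay under the background limit in every low density sample and above it in every high density sample. The epithelial markers EPCAM, CDH1, KRT7 and KRT19 were all well above background, and KRT19, KRT7 and CDH1 fell at low density. EPCAM had 3005 ± 105 normalized counts in low density cells against 3101 ± 54.0 in high density cells (SD, n = 3 each) and did not pass. Its call depended on the scaling, since it fell after median-of-ratios scaling (−0.11, limma adjusted p = 0.0020), rose after quantile normalization (0.11, limma adjusted p = 5.3e-04) and stood at 0.10 after scaling to the positive controls (limma adjusted p = 0.102). In bulk RNA, fewer cells that express a gene and less RNA per cell cannot be told apart.

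**Figure D5:**
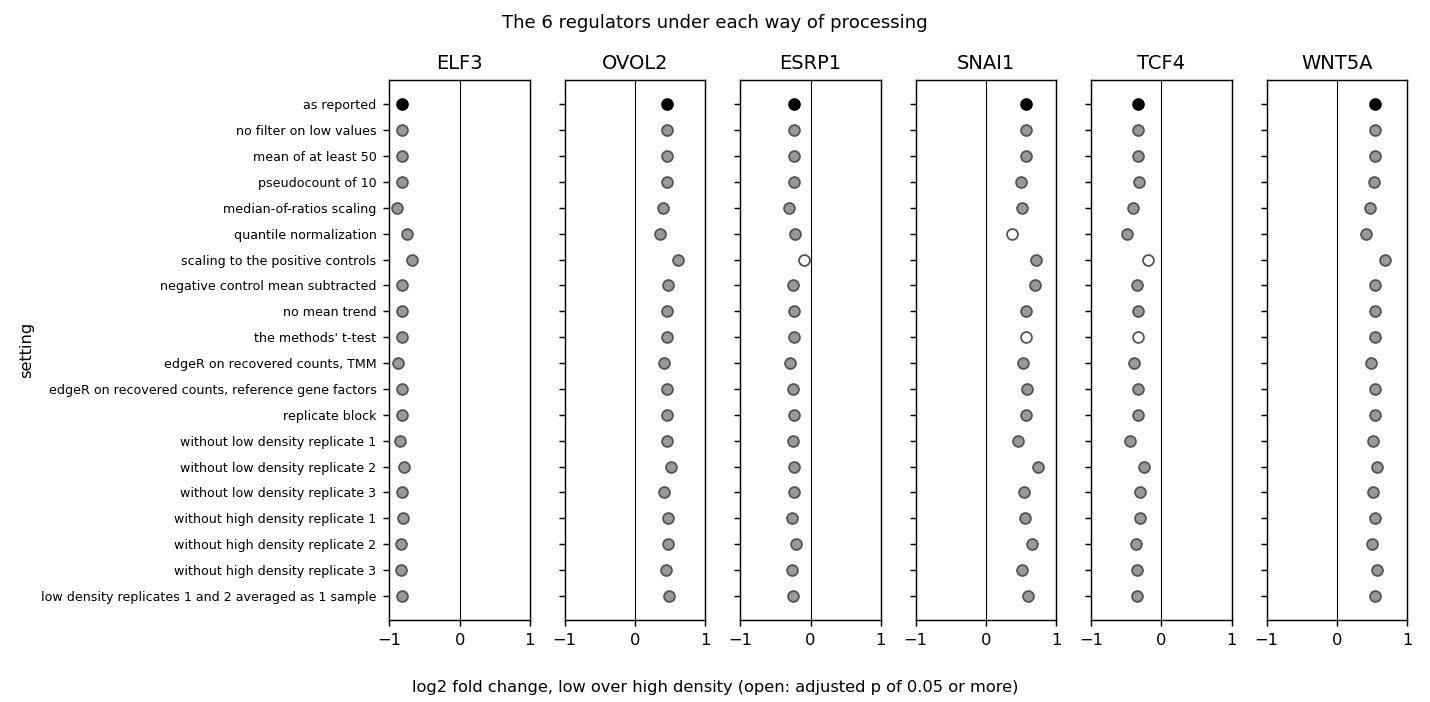
Log2 fold change, low over high density, of each member under every way of processing that was run, with the reported value on top. Open circles mark an adjusted p of 0.05 or more, which occurred for ESRP1 and TCF4 after scaling to the positive controls, for SNAI1 after quantile normalization, and for SNAI1 and TCF4 by the methods' t-test. No member changed direction.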

How the data were processed

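The authors deposited 1 table of 784 probes (770 genes, 8 negative and 6 positive controls) in 6 samples. The deposited gene values are a signal: the authors scaled the barcode counts of each sample by 1 factor. The factor, inferred from the values, set the geometric mean of 30 reference genes to 383 in every sample, and the software was not given in the sources used here. Whole counts were recovered for 98.7% to 100% of genes per sample (tolerance 0.01 count), and the rest were listed at 1. Gene symbols were kept as deposited; of 770, 755 are current RefSeq symbols.

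Reference genes were left out, and 480 of the other 740 genes, those averaging 20 or more, were tested. Their log2(value + 1) was fitted in limma 3.58.1 (R 4.3.3; mean trend, two-sided, no replicate block) and adjusted by Benjamini-Hochberg. Fold changes of low genes are understated. The fit borrows spread across genes (457 prior degrees of freedom), whereas an exact permutation of 3 against 3 samples cannot go below p = 0.1. The fit was also run on counts simulated with the same dispersion for all genes, which is no check of the calls made here. Alternatives were other filters, pseudocounts, scalings and tests, edgeR 4.0.16 on recovered counts, a replicate block and leaving out each sample; edgeR with reference gene factors and the averaging of low density replicates 1 and 2 were added after seeing the data.

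The members, and the gene lists built from general knowledge, were chosen with earlier results of these data known. Named were the members and the 3 closest genes to each by r. Per list, up to 4 called genes of largest change and 2 others of highest mean were named. TCF3, CD44, CDH1 among SNAI1 targets and the 6 EMT factors under the floor were named after seeing their values. So were COL1A1 among mesenchymal effectors, ITGA5, TGFB2 and FAP.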

Additional observations from a re-analysis of the deposited data

How the results depend on the processing

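ELF3, OVOL2 and WNT5A kept direction and call under all 19 alternatives, from −0.88 to −0.67, 0.35 to 0.61 and 0.42 to 0.68 on the log2 scale. By the methods' t-test, where each gene has its own spread, their adjusted p was 3.5e-04, 0.0055 and 0.0022, far larger than in the main fit. No member reversed. Scaling to the positive controls gave ESRP1 −0.095 and TCF4 −0.19, not past the threshold, quantile normalization gave SNAI1 0.36, and the methods' t-test gave SNAI1 0.57 (adjusted p = 0.0664) and TCF4 −0.34 (adjusted p = 0.0809). The cause was not tested. Leaving out each sample in turn kept all 6 calls, with ranges of −0.84 to −0.79 for ELF3, 0.41 to 0.51 for OVOL2, −0.26 to −0.21 for ESRP1, 0.45 to 0.73 for SNAI1, −0.45 to −0.25 for TCF4 and 0.50 to 0.57 for WNT5A. The number of genes called ranged from 293 to 316 without 1 sample and from 264 to 332 over all alternatives, against 318 as reported.

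How many genes rose or fell varied with scaling: 186 rose and 132 fell as reported, 161 and 161 by median-of-ratios, 145 and 148 by quantile normalization, 240 and 76 by the positive controls, and 168 and 159 by edgeR with TMM. Same-numbered samples did not deviate together (r = 0.117, −0.11 and −0.035), so the replicate numbers were not taken as pairs. With the replicate number as a block, 320 genes were called and the 6 members kept their calls. SNAI1 had the fewest recovered counts of the members, 37 to 90 per sample.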

Other observations

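Genes that carry out mesenchymal traits moved in both directions. Of the 9 that reached a mean of 20 over all samples, FN1 and MMP2 did so only through the low density group. Of the other 7, 4 rose, 2 fell and 1 did not pass, where 38.8% of tested genes rose and 27.5% fell. Their median log2 fold change was 0.29, beside 0.045 over all tested genes. VIM, the intermediate filament vimentin and a classic mesenchymal marker, had 187, 149 and 164 normalized counts at low density, against 434, 359 and 360 at high density, and fell by 1.20 on the log2 scale (limma adjusted p = 8.5e-38). TGFB1, the growth factor that induces EMT, had 58.3, 72.3 and 77.0 at low density, against 37.9, 46.0 and 41.4 at high density, and rose by 0.71 (limma adjusted p = 4.5e-05). FN1, the matrix protein fibronectin, had 34.0, 32.2 and 36.6 at low density, against 17.9, 13.6 and 24.4 at high density, where the sample at 13.6 lay under its background limit of 18.1. MMP2, a matrix metalloproteinase, averaged 29.99 in low density cells against 10.4 in high density cells. The second lay under the mean background limit of 15.7, so the size of the change could not be read. The low density mean was 1.91 times that limit, a ratio of means without an error. CDH2, N-cadherin, had an interval of −0.16 to 0.09. Among the 7 genes that reached a mean of 20 in both groups, some calls depended on scaling. COL1A1 and ITGA5, which rose, were not past the threshold after quantile normalization (0.49 and 0.14, limma adjusted p = 0.0561 and 0.306). ITGA5 was not past it after median-of-ratios scaling either (0.22, limma adjusted p = 0.0709). TGFB2, which fell, was not past it after scaling to the positive controls (−0.0014, limma adjusted p = 0.981).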
